A study of Mus musculus with 8 samples.

Results

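The genes described here are 8 genes of B cells and antibody-secreting plasma cells: Cd79a, Cd79b, Ms4a1, Cxcr5, Pou2af1, Jchain, Mzb1 and Sdc1. They were found by the RefSeq accession of each probe on the array, which gave 10 probes for the 8 genes. All 8 were among the 28992 genes or unnamed transcripts that passed the filter on dim probes, of 45616 with a probe. Lungs of female BALB/c mice were profiled with 1 single-color array per mouse, 2 mice in each of 4 groups, all on 1 slide and read in 1 scan. NT mice ate standard feed for 70 days and received no ovalbumin (OVA). The other groups were also fed for 70 days and, late in that time by the study's methods, were sensitized to OVA by intraperitoneal injection and challenged with it by inhalation, which models allergic asthma. Among them, Ctrl-F mice ate standard feed, Cap-F mice ate feed with empty carbonate apatite particles, and ODNcap-F mice ate feed with particles that carried CpG oligodeoxynucleotides (short DNA strands that activate innate immune cells). The comparison of Ctrl-F with NT therefore measures sensitization and challenge together. The comparisons among the OVA groups are between feeds, and those with Ctrl-F also cross the slide rows described below.

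B cells recognize antigen through a surface immunoglobulin that signals by way of a pair of partner chains, and chemokine receptors guide them into follicles beside T cells. After activation, some become plasma cells, which enlarge their secretory apparatus, shut down much of the B cell surface program and export antibody. In allergic airway disease, antibody against the inhaled allergen arms mast cells and basophils, and B cells can gather with T cells in follicle-like clusters near the bronchi.

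The tissue label was checked with 5 lung markers: the surfactant proteins Sftpc and Sftpb, the club cell secretoglobin Scgb1a1, the alveolar type 1 receptor Ager and the endothelial junction protein Cldn5. All 5 were well above background on all 8 arrays, and Sftpc lay between 17.60 and 17.64 in group means of log2 intensity, near the brightest value on each array, 18.09. The markers summed to an intensity of 630443 and 631609 in the NT mice and to between 524610 and 543297 in the OVA mice, a sum of probe signals and not of RNA amounts, in which Sftpc gave the largest part over the 8 arrays. Cldn5 was called lower in Ctrl-F than in NT, with a log2 fold change of -1.27 ± 0.13 (SE, adjusted p = 0.000438). By the brightest probes it was the 1 lung marker called against NT, and it was not called when arrays were scaled to their 75th percentile. Other probes of Sftpb and Ager were called lower too, at log2 fold changes down to -1.61 and -1.39 in Ctrl-F. Levels are log2 intensities after quantile normalization throughout, and levels of different probes cannot be set against each other. A gene was called where limma gave both an adjusted p under 0.05 and more than a 2-fold difference. An exact permutation test on 2 against 2 mice cannot go below p = 0.333 (two-sided), so the spread was pooled over all genes and groups. NT and Ctrl-F lay in row 1 of the slide and Cap-F and ODNcap-F in row 2, so row and group cannot be told apart in comparisons that cross the rows, whereas Ctrl-F against NT and ODNcap-F against Cap-F each lie within a row.

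All 10 probes of the 8 genes were well above background on all 8 arrays, and none was saturated. Cd79a and Cd79b encode the signaling partners of surface immunoglobulin, which carry the signal of the B cell receptor into the cell. The log2 level of Cd79a (NM_007655) was 7.05 and 6.44 in NT mice 1 and 2, 9.01 and 8.74 in Ctrl-F, 8.78 and 8.86 in Cap-F, and 8.63 and 8.58 in ODNcap-F. For Cd79b (NM_008339) the log2 levels were 12.44 and 11.94 in NT mice 1 and 2, 14.37 and 13.98 in Ctrl-F, 14.35 and 14.36 in Cap-F, and 14.14 and 14.09 in ODNcap-F. Every OVA mouse was above both NT mice for both genes, by at least 1.53 for Cd79a and 1.54 for Cd79b on the log2 scale, and NT mouse 1 was above NT mouse 2. Groups that do not overlap are common at 2 mice each: of all genes tested, 35.5% for Ctrl-F, 34.3% for Cap-F and 34.2% for ODNcap-F lay above NT without overlap, and 48.5%, 47.8% and 48.1% below it. Cd79a rose in Ctrl-F over NT by a log2 fold change of 2.13 ± 0.20 (SE, adjusted p = 0.000352), in Cap-F by 2.07 (adjusted p = 0.000462) and in ODNcap-F by 1.86 (adjusted p = 0.000634). Cd79b rose by 1.98 ± 0.19 in Ctrl-F (SE, adjusted p = 0.000375), by 2.16 in Cap-F (adjusted p = 0.000335) and by 1.93 in ODNcap-F (adjusted p = 0.000468). These are 3.63 to 4.38-fold differences for Cd79a and 3.80 to 4.48-fold differences for Cd79b.

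The promoter of Cd79a is shown because early B cell genes are classic targets of E proteins, factors that bind E boxes. It was read from RefSeq on GRCm38.p6, chr7:24897247-24897546 on the plus strand, from 250 bases before the annotated start to 50 after it. Capitals mark the E box CAGGTG (or CACCTG on the other strand), here 154 to 149 bases before the start.
Cd79a: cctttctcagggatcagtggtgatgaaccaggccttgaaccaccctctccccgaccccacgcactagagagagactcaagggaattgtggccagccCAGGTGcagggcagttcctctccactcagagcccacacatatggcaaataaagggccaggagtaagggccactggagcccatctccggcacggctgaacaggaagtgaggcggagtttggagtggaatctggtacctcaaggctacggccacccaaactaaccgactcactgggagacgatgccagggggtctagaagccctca
Of 32851 promoters of this length, 6640 (20.2%) hold this E box on either strand, as do 34 of 80 companion genes and, of the 4 members matched in the promoter table (Cd79a, Jchain, Pou2af1 and Sdc1), 2. Ms4a1, Cd79b, Cxcr5 and Mzb1 had no entry. A match is a description, not a site or a cause.

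Ms4a1 encodes CD20, a surface protein of B cells that is lost in plasma cells. Its log2 level (NM_007641) was 11.01 and 10.63 in NT mice 1 and 2, 13.16 and 12.70 in Ctrl-F, 13.30 and 13.24 in Cap-F, and 12.96 and 12.86 in ODNcap-F. The lowest OVA mouse, Ctrl-F mouse 2, was above the highest NT mouse by 1.69 on the log2 scale. Ms4a1 rose over NT by a log2 fold change of 2.11 ± 0.18 in Ctrl-F (SE, adjusted p = 0.00026, 4.32-fold), 2.45 in Cap-F (adjusted p = 0.000187, 5.47-fold) and 2.09 in ODNcap-F (adjusted p = 0.000306, 4.26-fold). Cxcr5 is the receptor for CXCL13 and leads B cells and follicular helper T cells into follicles. The log2 level of Cxcr5 (NM_007551) was 9.04 and 8.48 in NT mice 1 and 2, 10.69 and 10.37 in Ctrl-F, 10.90 and 10.83 in Cap-F, and 10.63 and 10.40 in ODNcap-F. Again no OVA mouse overlapped the NT mice, and the smallest distance was 1.33 on the log2 scale. Cxcr5 rose over NT by a log2 fold change of 1.77 ± 0.21 in Ctrl-F (SE, adjusted p = 0.000769), 2.10 in Cap-F (adjusted p = 0.000478) and 1.75 in ODNcap-F (adjusted p = 0.000865), which are 3.41, 4.30 and 3.37-fold.

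Pou2af1 encodes OCA-B, a B cell coactivator that joins octamer-binding factors on DNA and is needed for germinal centers. Its log2 level (NM_011136) was 10.27 and 9.88 in NT mice 1 and 2, 14.12 and 14.03 in Ctrl-F, 14.13 and 14.12 in Cap-F, and 14.11 and 13.99 in ODNcap-F. The 6 OVA mice spanned 0.14 on the log2 scale, the narrowest range among the 7 genes called over NT, and all lay at least 3.72 above the NT mice. Pou2af1 rose over NT by a log2 fold change of 4.001 ± 0.13 in Ctrl-F (SE, adjusted p = 1.19e-05), 4.05 in Cap-F (adjusted p = 1.3e-05) and 3.97 in ODNcap-F (adjusted p = 1.31e-05). On the linear scale these are 16.0, 16.5 and 15.7-fold.

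Promoters are shown with Pou2af1, its own and those of Blnk and Pim2, because OCA-B acts at the octamer ATGCAAAT. They come from RefSeq on GRCm38.p6: Pou2af1 at chr9:51213440-51213739 (plus strand), Blnk, an adaptor of the B cell receptor, at chr19:40994172-40994471 (minus strand), and Pim2, a survival kinase, at chrX:7878056-7878355 (plus strand). Blnk and Pim2 are companion genes chosen as examples after their matches and values were seen, and both were called higher in all OVA groups. The other companion genes with the octamer are Ccr6, Mef2b and Vpreb3, and Vpreb3 was not called, at log2 fold changes against NT of -0.54 for Ctrl-F, 0.14 for Cap-F and -0.24 for ODNcap-F. Capitals mark the octamer and the E box on either strand, and the motif TGACGTG, a form bound by XBP1 and related factors.
Pou2af1: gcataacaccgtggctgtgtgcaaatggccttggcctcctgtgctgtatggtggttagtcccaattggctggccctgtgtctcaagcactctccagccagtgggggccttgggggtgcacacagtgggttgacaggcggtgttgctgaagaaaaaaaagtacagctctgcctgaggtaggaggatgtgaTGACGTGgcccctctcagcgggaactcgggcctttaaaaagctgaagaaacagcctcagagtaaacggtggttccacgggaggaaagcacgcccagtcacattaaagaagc
Blnk: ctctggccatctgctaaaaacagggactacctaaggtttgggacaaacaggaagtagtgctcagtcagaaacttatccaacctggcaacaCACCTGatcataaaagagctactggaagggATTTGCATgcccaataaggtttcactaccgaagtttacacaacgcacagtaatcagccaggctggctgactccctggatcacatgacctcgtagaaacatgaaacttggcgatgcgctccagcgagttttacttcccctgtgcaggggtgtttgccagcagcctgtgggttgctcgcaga
Pim2: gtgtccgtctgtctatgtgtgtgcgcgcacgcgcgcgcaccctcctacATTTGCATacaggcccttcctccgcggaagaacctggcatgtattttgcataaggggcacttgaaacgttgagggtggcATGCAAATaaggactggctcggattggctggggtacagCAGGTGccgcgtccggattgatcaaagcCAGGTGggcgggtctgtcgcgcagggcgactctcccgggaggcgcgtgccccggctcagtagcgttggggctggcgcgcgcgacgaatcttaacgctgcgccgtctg
The TGACGTG of Pou2af1 lies 61 to 55 bases before the start. The octamer lies 130 to 123 bases before the start in Blnk, and in Pim2 at 202 to 195 and 123 to 116 bases before it. Among all promoters of this length, 570 (1.74%) hold the octamer and 661 (2.01%) hold TGACGTG. Of the 4 members matched, 0 hold the octamer and 1 holds TGACGTG, and of the 80 companion genes 5 and 4 do.

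Jchain and Mzb1 belong to the secretory side. Jchain encodes the joining chain that links immunoglobulin monomers into dimeric IgA and pentameric IgM. The log2 level of Jchain (NM_152839) was 10.43 and 10.09 in NT mice 1 and 2, 16.35 and 16.34 in Ctrl-F, 16.28 and 16.37 in Cap-F, and 16.33 and 16.50 in ODNcap-F. Every OVA mouse was at least 5.85 above both NT mice on the log2 scale, and the 6 OVA mice spanned 0.22. Jchain rose over NT by a log2 fold change of 6.09 ± 0.13 in Ctrl-F (SE, adjusted p = 4.85e-06, 67.9-fold), 6.07 in Cap-F (adjusted p = 5.78e-06, 67.0-fold) and 6.16 in ODNcap-F (adjusted p = 5.5e-06, 71.3-fold). Mzb1 encodes a chaperone of the endoplasmic reticulum that helps antibody fold and be secreted. The log2 level of Mzb1 (NM_027222) was 8.70 and 8.27 in NT mice 1 and 2, 14.95 and 14.93 in Ctrl-F, 14.65 and 14.87 in Cap-F, and 14.74 and 15.10 in ODNcap-F. All OVA mice were at least 5.95 above the NT mice on the log2 scale, with the lowest value in Cap-F mouse 1 and the highest in ODNcap-F mouse 2. Mzb1 rose over NT by a log2 fold change of 6.45 ± 0.19 in Ctrl-F (SE, adjusted p = 7.75e-06, 87.6-fold), 6.28 in Cap-F (adjusted p = 1.01e-05, 77.4-fold) and 6.43 in ODNcap-F (adjusted p = 8.55e-06, 86.3-fold). In whole lung, more cells of a type and more RNA per cell cannot be told apart, and this holds for each difference given here.

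The promoter of Jchain, the gene that brings antibody chains together, is shown for comparison with that of Cd79a. It was read from RefSeq on GRCm38.p6, chr5:88527848-88528147 on the minus strand, and its E box, in capitals, lies just after the annotated start.
Jchain: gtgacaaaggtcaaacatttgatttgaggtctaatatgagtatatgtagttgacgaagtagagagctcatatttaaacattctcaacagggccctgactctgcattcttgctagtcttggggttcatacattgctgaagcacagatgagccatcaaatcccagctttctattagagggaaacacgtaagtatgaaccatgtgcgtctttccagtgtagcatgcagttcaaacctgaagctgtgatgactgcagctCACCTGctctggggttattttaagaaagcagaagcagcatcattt

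Sdc1 encodes syndecan-1 (CD138), a heparan sulfate proteoglycan that marks plasma cells in flow cytometry and is also abundant on epithelial cells. Its log2 level (NM_011519, the brightest of 3 probes) was 11.24 and 11.21 in NT mice 1 and 2, 11.03 and 11.11 in Ctrl-F, 10.92 and 10.96 in Cap-F, and 11.06 and 11.11 in ODNcap-F. By this probe every OVA mouse was below both NT mice by small amounts, as was the case for 48.5% of all genes in Ctrl-F. The log2 fold change against NT was -0.15 ± 0.07 in Ctrl-F (SE, adjusted p = 0.0894), -0.28 in Cap-F (adjusted p = 0.0128) and -0.14 in ODNcap-F (adjusted p = 0.12), so it was not called in any of them, the difference in Cap-F being 1.22-fold. The other 2 probes gave log2 fold changes of -0.13 and -0.08 in Ctrl-F, -0.31 and -0.24 in Cap-F, and -0.09 and -0.08 in ODNcap-F, none of them called, and by 1 of these probes Ctrl-F and ODNcap-F overlapped NT. Epithelial markers were measured beside it: of 6 (Epcam, Cdh1, Krt7, Krt8, Krt18 and Krt19), 0 were called higher, and 0, 1 and 0 were called lower against NT (for Ctrl-F, Cap-F and ODNcap-F), at median log2 fold changes of -0.36, -0.33 and -0.13, beside the shares of all genes called that are given below. Scaled to the 75th percentile, these medians were -0.16, -0.28 and -0.0084, with 3 of 6 higher in ODNcap-F. Krt7, named after its values were seen, was the epithelial marker called, with a log2 fold change of -1.08 ± 0.08 in Cap-F (SE, adjusted p = 0.000184). The 6 markers summed to an intensity of 54998 and 53819 in NT mice 1 and 2, 41013 and 40564 in Ctrl-F, 37170 and 43343 in Cap-F, and 44666 and 50270 in ODNcap-F, with the largest part of that signal from the probe of Krt18. No epithelial marker was at or below background on any array. Their part in the Sdc1 values was not tested.

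**Figure D1:**
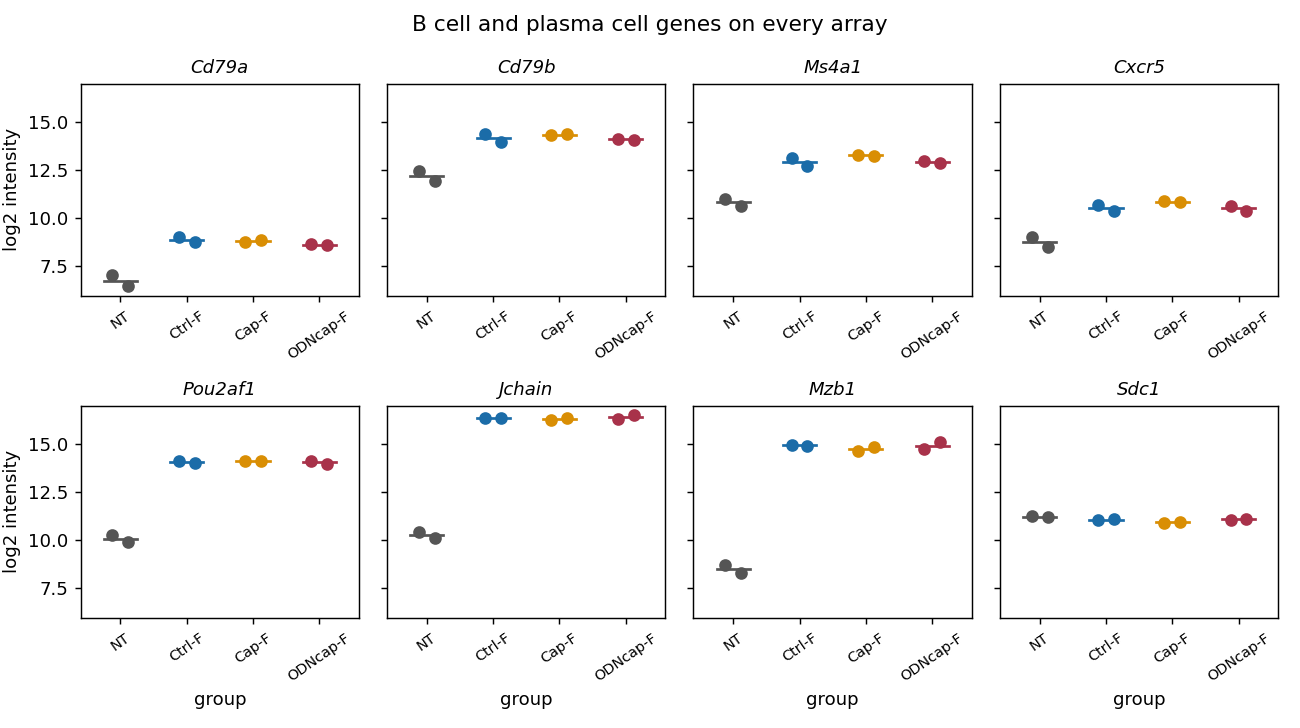
Log2 normalized intensity of the 8 genes (1 panel per gene) on each of the 8 arrays, grouped by feed and OVA, with a point for each mouse and a line for each group's mean. In 7 panels all 6 OVA mice lie above both NT mice, by 1.33 for Cxcr5 up to 5.95 for Mzb1, and in the Sdc1 panel they lie just below them, where 34.2% to 35.5% of all genes lie above NT without overlap and 47.8% to 48.5% below.

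Counted over the list, limma called 7 of the 8 genes higher and 0 lower in each OVA group against NT. The local-pooled-error test also called 7, and at an unadjusted p under 0.05 the counts were 7, 8 and 7, where Cap-F includes Sdc1, against 66.4%, 61.9% and 64.8% of all genes. Across all 28992 genes or transcripts tested, the share called higher was 10.5% for Ctrl-F, 9.74% for Cap-F and 9.86% for ODNcap-F, and the share called lower was 12.2%, 9.87% and 10.8%. The median log2 fold change over the 8 genes was 2.12 for Ctrl-F, 2.31 for Cap-F and 2.01 for ODNcap-F, whereas over all genes tested it was -0.12, -0.11 and -0.12. The 3 comparisons share the 2 NT mice, so they are not independent of each other. The genes fall into separate sizes of difference: the 4 B cell surface genes Cd79a, Cd79b, Ms4a1 and Cxcr5 lay between 1.75 and 2.45 on the log2 scale, Pou2af1 between 3.97 and 4.05, and Jchain and Mzb1 between 6.07 and 6.45.

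**Figure D2:**
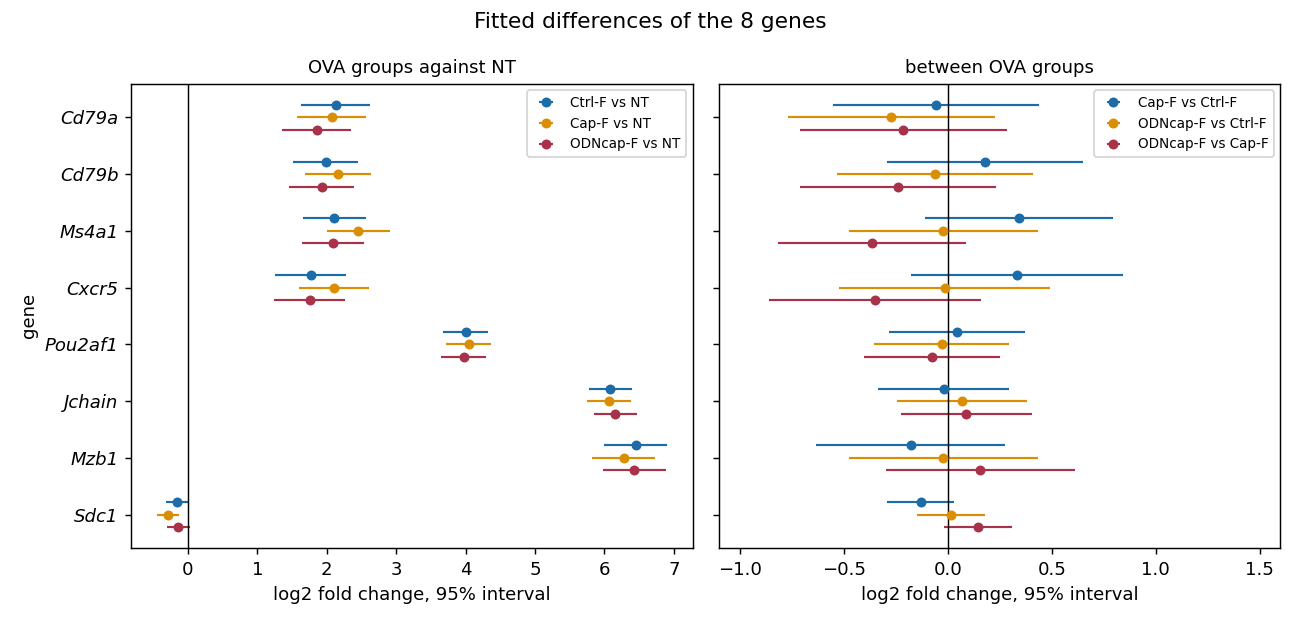
Log2 fold change of each of the 8 genes in the 6 comparisons, with 95% confidence intervals from limma. Against NT, Cd79a, Cd79b, Ms4a1 and Cxcr5 lie between 1.75 and 2.45, Pou2af1 between 3.97 and 4.05, and Jchain and Mzb1 between 6.07 and 6.45, while every interval between OVA groups includes 0.

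Feeds were compared among the OVA groups, and these comparisons share mice too: Ctrl-F is in both comparisons with the standard feed, and Cap-F and ODNcap-F each appear in 2. By limma, 0 of the 8 genes were called in Cap-F against Ctrl-F, ODNcap-F against Ctrl-F or ODNcap-F against Cap-F, 0 passed an unadjusted p under 0.05, and the local-pooled-error test called 0. Across all genes tested, limma called 0.00345%, 0% and 0.00345% in these comparisons, and 16.6%, 6.78% and 13.4% had an unadjusted p under 0.05. Groups that do not overlap made up 51.7%, 35.6% and 45.7% of all genes, against 4, 1 and 6 of the 8 genes here. The counts over 8 genes are given as a description.

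By group mean, Cap-F was the highest OVA group in Ms4a1 (log2 level 13.27, SD 0.04, n = 2), Cd79b (14.35), Cxcr5 (10.87) and Pou2af1 (14.12), and Ctrl-F was the highest in Cd79a (8.88, SD 0.19, n = 2) and Mzb1 (14.94). ODNcap-F was the highest OVA group in Jchain (16.42, SD 0.12, n = 2) and Sdc1 (11.09, SD 0.04, n = 2). Neighbors in these orders among the OVA groups did not differ by the test.

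In Cap-F against Ctrl-F, the genes that did not overlap were Ms4a1 (log2 fold change 0.34, 95% confidence interval -0.11 to 0.80, adjusted p = 0.411), Cxcr5 (0.33, adjusted p = 0.465), Mzb1 (-0.18, adjusted p = 0.663) and Sdc1 (-0.13, adjusted p = 0.39). In ODNcap-F against Ctrl-F, the gene that did not overlap was Cd79a, at a log2 fold change of -0.27 (95% confidence interval -0.77 to 0.23, adjusted p = 0.831). Within row 2, ODNcap-F was below Cap-F without overlap in Ms4a1 (log2 fold change -0.36, 95% confidence interval -0.82 to 0.09, adjusted p = 0.467), Cxcr5 (-0.35, adjusted p = 0.524), Cd79b (-0.24, adjusted p = 0.635), Cd79a (-0.21, adjusted p = 0.685) and Pou2af1 (-0.07, adjusted p = 0.853), and above it in Sdc1 (0.15, adjusted p = 0.421). The sign for Pou2af1 turned to 0.02 when arrays were scaled to their 75th percentile. Of the secretory genes, in ODNcap-F against Ctrl-F, Jchain differed by a log2 fold change of 0.07 (95% confidence interval -0.24 to 0.38) and Mzb1 by -0.02 (95% confidence interval -0.48 to 0.43). A p that misses the threshold does not show equal levels, and the intervals give the differences that 2 mice per group leave possible.

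Genes of the same pathways were read from companion lists of 109 genes, of which 97 had a named probe and 96 were kept. Each run of 3 counts below gives the genes called against NT for Ctrl-F, Cap-F and ODNcap-F in that order, to be read against the shares of all genes given above. Among 12 genes of B cell receptor and coreceptor signaling, 9, 10 and 9 were called higher and 0 lower. The largest differences in Ctrl-F were in Blnk, at a log2 fold change of 3.28 ± 0.10 (SE, adjusted p = 9.7e-06), and in the kinase Blk, at 3.01 ± 0.21 (SE, adjusted p = 0.000119). Btk, the kinase mutated in an inherited lack of B cells, had 2.52 and Plcg2, the phospholipase it activates, had 2.04. Among 12 other B cell identity genes 7, 7 and 7 were called higher and 0 lower, among them Tnfrsf13c, the receptor for the survival factor BAFF, at 3.04 ± 0.17 in Ctrl-F (SE, adjusted p = 5.62e-05), and the transcription factor Spib at 2.67 ± 0.13 (SE, adjusted p = 4.14e-05). Fcrla rose by 2.47 and the tetraspanin Cd37 by 1.77 on the same scale. Not called in Ctrl-F were Cr2, Lyn and Cd81 among the receptor genes and Pax5, Ebf1, Bach2, Tnfrsf13b and Vpreb3 among the identity genes, named here after their values were seen. For Tnfrsf13b the brightest probe had a log2 fold change of 0.96 and another probe had 4.18, and for Cd22 the probes ranged from 0.15 to 2.70.

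**Figure D3:**
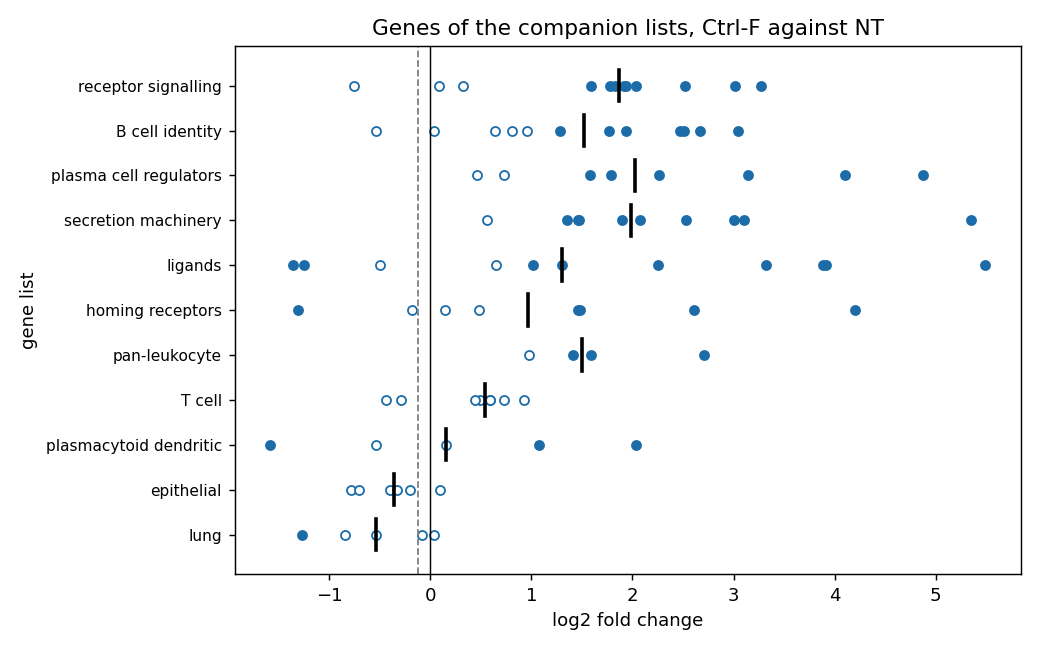
Log2 fold change of Ctrl-F against NT for the genes of each list plotted, with a point per gene (filled where called), a bar at each list's median and a dashed line at the median of all genes. Every plasma cell regulator and secretion gene lies above 0, and the medians of the epithelial and lung lists lie below it.

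Of the germinal center genes, Rgs13, a brake on chemokine receptor signaling, was not well above background in either NT mouse. Its log2 level was 5.98 and 4.25 in Ctrl-F mice 1 and 2, 5.54 and 5.34 in Cap-F, and 5.12 and 4.29 in ODNcap-F, where 1 of the 2 mice was well above background. Because it passed the filter only through Ctrl-F and Cap-F, where it was brighter than in NT, neither its call nor a fold is given. Mice of the same group were far apart in Ctrl-F. Mybl1, a transcription factor of germinal center B cells, had a log2 fold change of 1.98 ± 0.16 in Ctrl-F (SE, adjusted p = 0.00021). Mef2b, another, was well above background in 1 of 2 NT mice and passed the filter only through the OVA groups, so neither its call nor a fold is given. Counts over that list are not given here.

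Plasma cell regulators and surface proteins, 8 in all, had 6, 6 and 6 called higher and 0 lower, and all 8 were above 0 in each comparison. Not called were the regulators Prdm1, at log2 fold changes of 0.73, 0.94 and 0.80, and Xbp1, at 0.46, 0.61 and 0.61. Both were named after their values were seen, and both had an adjusted p under 0.05 but less than a 2-fold difference. Tnfrsf17, the receptor BCMA that keeps plasma cells alive, rose by a log2 fold change of 4.88 ± 0.25 in Ctrl-F (SE, adjusted p = 4.85e-05, 29.4-fold), and Irf4, a transcription factor that plasma cells require, by 4.10 ± 0.11 (SE, adjusted p = 7.02e-06, 17.2-fold). Slamf7 rose by 3.15 and the elongation factor Ell2, which favors the secreted form of antibody mRNA, by 2.26 on the same scale. Antibody secretion machinery had 9, 9 and 9 of 10 called higher and 0 lower. Among the 9 is Fkbp11, which was well above background in 1 of 2 NT mice and passed the filter only through the OVA groups. The other genes of this list were well above background on all 8 arrays, NT included. Which cells gave the signals of this list was not tested. The degradation factor Derl3 rose by a log2 fold change of 5.35 ± 0.22 in Ctrl-F (SE, adjusted p = 2.35e-05, 40.9-fold), 5.42 in Cap-F and 5.43 in ODNcap-F. Sdf2l1 rose 8.01-fold, and on the log2 scale the signal peptidase subunit Sec11c by 2.53 and the translocon subunit Ssr4 by 1.47 in Ctrl-F. Of 12 immunoglobulin constant region and surrogate light chain genes, 11 had no probe that could be named through the accessions used here, and the other, Igll1, was not well above background on any array, so antibody classes were not analysed here.

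Ligands that attract B cells or keep them alive had 7, 7 and 7 of 11 called higher and 2, 2 and 1 called lower. These counts include Il21 and Il6, which passed the filter only through OVA groups, and Ccl28, which passed only through NT. Their calls are therefore not independent of the filter. Cxcl13, the ligand of Cxcr5, rose by a log2 fold change of 3.32 ± 0.24 in Ctrl-F (SE, adjusted p = 0.000146), 3.38 in Cap-F and 3.71 in ODNcap-F. Ccl20, the ligand of Ccr6, rose by 3.88 in Ctrl-F on the log2 scale. Il6, a plasma cell survival cytokine, was well above background in 1 of 2 NT mice, so neither its call nor a fold is given. Il21, a helper T cell cytokine, was not well above background in NT by its brighter probe, so neither its call nor a fold is given for that probe. Its other probe had log2 fold changes of -0.18, -0.14 and -0.09. The genes called lower, named after their values were seen, were Cxcl12, at -1.35 in Ctrl-F, and Ccl28, which was well above background on 5 of 8 arrays, and the other probe of Cxcl12 was called the opposite way, at 1.68. Homing receptors and integrins had 4, 4 and 4 of 8 called higher and 1, 1 and 1 lower. Ccr10, which draws IgA plasma cells to mucosal surfaces, rose by a log2 fold change of 4.20 ± 0.21 in Ctrl-F (SE, adjusted p = 4.5e-05, 18.4-fold), Ccr6 by 2.61, the integrin Itga4 by 1.48 and Cxcr4 by 1.46. The gene called lower, named after its values were seen, was S1pr1, the receptor for exit from lymphoid tissue, at -1.31 ± 0.10 in Ctrl-F (SE, adjusted p = 0.000183).

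Other cell types were read beside these lists. Of 8 T cell markers, 6, 6 and 6 had an unadjusted p under 0.05, near the share of all genes given above. All of these were higher than NT. Among the 28992 genes tested, 8103, 7566 and 7854 passed higher and 11135, 10377 and 10939 lower. Called higher than NT were 0, 2 and 0 of the 8 markers, and their median log2 fold changes were 0.54, 0.53 and 0.48. The 2 in Cap-F were Cd3g (1.06) and Lck (1.11), named after their values were seen, and neither was called without NT mouse 2, while 1 marker was called in Ctrl-F without NT mouse 1. Their summed intensity was 11541 and 8956 in NT mice 1 and 2, 16461 and 14990 in Ctrl-F, 18196 and 17170 in Cap-F, and 16964 and 13864 in ODNcap-F, with the largest part of that signal from the probe of Lck. The defining T cell marker Cd3e had log2 fold changes of 0.60, 0.59 and 0.44 in the 3 comparisons and was not called. Of 4 markers shared by leukocytes, 3, 4 and 3 were called higher, and Cd52, whose probe gave the largest part of their signal in the OVA mice but not in the NT mice, rose by a log2 fold change of 2.71 ± 0.11 in Ctrl-F (SE, adjusted p = 2.32e-05). Laptm5 rose by 1.59 and Coro1a by 1.41 on the same scale, and the 4 markers summed to an intensity of 26966 and 22213 in NT mice 1 and 2, 103656 and 94306 in Ctrl-F, 107373 and 103151 in Cap-F, and 95959 and 89574 in ODNcap-F.

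Plasmacytoid dendritic cells share several genes with B cells and respond to CpG DNA. Of their 5 markers, 2, 1 and 1 were called higher and 1, 1 and 0 lower. In ODNcap-F 2 were called in all without NT mouse 2, and 3 without ODNcap-F mouse 2. Klk1 rose by a log2 fold change of 2.03 ± 0.15 in Ctrl-F (SE, adjusted p = 0.000138) and Ccr9 by 1.07, while Cox6a2, which is also a heart and muscle gene, was called lower at -1.58. Siglech, the defining surface marker, whose probe gave the largest part of the signal of these markers, had log2 fold changes of -0.53, -0.32 and -0.41 and was not called. Their summed intensity was 50502 and 50133 in NT mice 1 and 2, 36339 and 34819 in Ctrl-F, 39609 and 42006 in Cap-F, and 38817 and 40346 in ODNcap-F. No T cell, leukocyte or plasmacytoid dendritic cell marker was at or below background on any array, and the part of these cells in the results was not tested. The 8 B cell and plasma cell genes summed to an intensity of 13716 and 10684 in NT mice 1 and 2, 167561 and 157683 in Ctrl-F, 158379 and 167495 in Cap-F, and 157365 and 172999 in ODNcap-F, with the largest part of the signal over the 8 arrays from the probe of Jchain, though not in the NT mice.

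Between the OVA groups, limma called 0 genes of any companion list, the local-pooled-error test called 0, and 0 to 4 genes of each list had an unadjusted p under 0.05. The 24 genes of the receptor and identity lists were then read together, a grouping made after their values were seen. In ODNcap-F against Cap-F, 23 of the 24 were lower, at a median log2 fold change of -0.28, whereas 52.1% of all genes tested were lower. Of these, 3 of 24 had an unadjusted p under 0.05, against 13.4% of all genes, and 19 of 24 did not overlap, against 45.7%. All 19 lay lower, whereas 7152 of the 28992 genes tested lay lower without overlap. In Cap-F against Ctrl-F, 20 of the 24 were higher at a median of 0.16. When arrays were scaled to their 75th percentile, 17 were higher at a median of 0.07. Of the 24, 2 had an unadjusted p under 0.05 and 12 did not overlap, against 51.7% of all genes. All 12 lay higher, whereas 7506 of the 28992 genes tested lay higher without overlap. In ODNcap-F against Ctrl-F, 20 of the 24 were lower at a median of -0.08. Of the 24, 0 had an unadjusted p under 0.05 and 5 did not overlap, against 35.6% of all genes. Of these 5, 4 lay lower and 1 higher, beside 5384 and 4928 of the 28992 genes tested. These genes are read from the same mice and often the same cells, so 24 genes are not 24 observations. In ODNcap-F against Cap-F, 4 of 4 leukocyte markers were lower, at a median of -0.19 (-0.10 when scaled to the 75th percentile), as were 5 of 8 T cell markers, at -0.16, 7 of 11 ligands, at -0.31, and 5 of 8 homing receptors, at -0.12, while 6 of 6 epithelial markers were higher, at 0.26, and 3 of 5 plasmacytoid dendritic cell markers, at 0.18. The plasma cell and secretion lists had medians of 0.04 and 0.08 in ODNcap-F against Cap-F (0.06 and 0.15 when scaled to the 75th percentile).

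**Figure D4:**
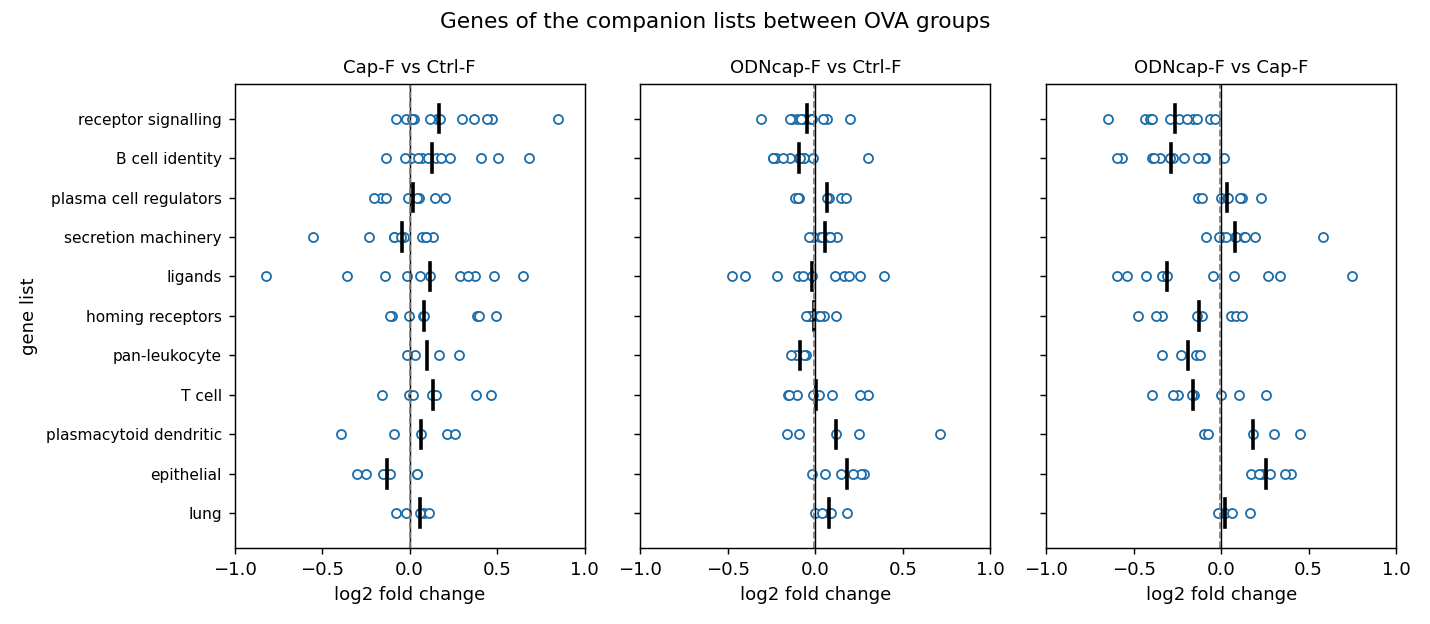
Log2 fold change in Cap-F against Ctrl-F, ODNcap-F against Ctrl-F and ODNcap-F against Cap-F for the genes of each list plotted, with a point per gene and a bar at each list's median. In ODNcap-F against Cap-F, 23 of the 24 receptor and identity genes lie below 0, and no gene plotted was called.

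Mice of the same group also differed. Between NT mice 1 and 2, the 4 B cell surface genes were higher in mouse 1, with a median log2 difference of 0.53, and Jchain and Mzb1 were higher in mouse 1 by 0.34 and 0.44. The T cell and leukocyte lists were also higher in NT mouse 1, at medians of 0.37 and 0.30. They were higher in mouse 1 of ODNcap-F too, at 0.36 and 0.22, and by less in Ctrl-F (0.04 and 0.18) and Cap-F (0.09 and 0.08). Between the Ctrl-F mice the 4 B cell surface genes differed by a median of 0.35 in the same sense, whereas Jchain and Mzb1 differed by 0.01 and 0.02. In Cap-F and ODNcap-F these medians were 0.03 and 0.08. In ODNcap-F, Jchain and Mzb1 were lower in mouse 1, by -0.18 and -0.36, and the secretion list had a median of -0.48 there. Of the 24 receptor and identity genes, 22, 22, 15 and 20 were higher in mouse 1, counted for NT, for Ctrl-F, for Cap-F and for ODNcap-F, against 49.3%, 51.4%, 53.6% and 51.6% of all genes.

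The genes most like the B cell surface genes over the 8 arrays, among 16467 named genes outside all lists, were Dok3, Pik3cd, Fcho1, Ptprcap and Bfsp2, with Pearson r from 0.998 to 0.999 to the mean profile of Cd79a, Cd79b, Ms4a1 and Cxcr5. Over the 6 OVA mice alone r was 0.97 for Dok3, 0.96 for Pik3cd, 0.99 for Fcho1, 0.92 for Ptprcap and 0.92 for Bfsp2. Pik3cd encodes the leukocyte form of the phosphoinositide 3-kinase catalytic subunit, Dok3 an adaptor that restrains B cell receptor signaling, and Ptprcap a partner of CD45. Their log2 fold changes in Ctrl-F against NT were 1.27 for Pik3cd, 1.80 for Dok3 and 1.62 for Ptprcap. The genes most like the mean profile of Jchain and Mzb1 were Mki67, Slpi, Slc16a6, Il5ra and Rrm2, where r over 8 arrays was above 0.999 but over the 6 OVA mice was 0.59 for Mki67, 0.40 for Slpi, 0.80 for Slc16a6, 0.59 for Il5ra and 0.69 for Rrm2. Over 8 arrays r rests on the difference between the NT and the OVA mice, and any gene with a large and even difference would score high. Mki67 and Rrm2, genes of dividing cells, rose in Ctrl-F by 3.67 and 3.70 on the log2 scale, Il5ra, the receptor for interleukin 5, by 3.16, and the protease inhibitor Slpi by 4.85.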

How the data were processed

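Cy3-labeled lung RNA of 8 mice was read on Agilent arrays. The authors deposited 1 scanner file per array, made with Agilent Feature Extraction 11.0, whose values are background-corrected spot intensity on a linear scale. Probe values were taken as log2 of the processed intensity and quantile normalized over the 8 arrays. The table of log2 values that the authors deposited holds 32312 probes, all well above background on every array, and it differed from the recomputed values by a median of 3.23e-07 and at most 0.125. Each of its columns has a median of 8.55, its scale and direction are those of the recomputed values, and the rule that chose its probes stays unknown. It was used as an alternative.

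Of 59305 spots that are no controls, 792 values marked as outliers by the scanner software were set missing, and spots of a probe were averaged, which gave 56605 probes. The filter kept 37116 probes that were well above background in both mice of at least 1 group. Accessions matched RefSeq genes for 32994 probes (58.3%), and for 24290 of those kept (65.4%). The brightest probe stood for each gene. Of 38 list genes with several probes, the probes differed in call for 9, 8 and 9 against NT, some of which are given. No fold is given for a probe that was well above background in neither mouse of a group compared. The fit used limma 3.58.1 in R 4.3.3 (lmFit and eBayes, 4 groups, Benjamini-Hochberg adjustment over all kept probes), checked on simulated data, and figures were drawn with matplotlib 3.10.9 in Python 3.11.15.

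Named genes are the 8 members, up to 4 called genes of each companion list with the smallest p in Ctrl-F against NT, defining markers of other cell types, and the 5 genes most like each of 2 profiles. Genes named outside this rule were chosen after their values were seen. The members and lists were chosen with earlier results of these data known. Tested alternatives were scaling to the 75th percentile, normexp with offset 50 on the median spot signal (the mean was not used here), the deposited table, 2 other filters, a replicate block, an intensity trend, fits of 2 groups, leaving out each array, the mean of a gene's probes, a local-pooled-error test and other thresholds. All arrays were on 1 slide and in 1 scan. The number of arrays limits the precision.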

Additional observations from a re-analysis of the deposited data

How the results depend on the processing

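The count of the 8 genes called was 7 in each comparison with NT under every alternative run, except 8 in Cap-F against NT when no fold threshold was set, and 0 in each comparison between OVA groups. Their median log2 fold change against NT moved when an NT mouse was left out: it ranged over the arrays left out from 1.87 to 2.37 in Ctrl-F, 2.09 to 2.53 in Cap-F and 1.79 to 2.23 in ODNcap-F. Such fits assume that the lone mouse varies like the other groups. Of 630 fold changes of single members under alternatives (those against NT, and those between OVA groups that did not overlap), 629 kept their direction and their side of the threshold, and 1 turned, Pou2af1 in ODNcap-F against Cap-F, at 0.0242 under scaling to the 75th percentile (adjusted p = 0.95), where the cause was not tested. Fold changes whose groups overlapped are outside that count: in ODNcap-F against Ctrl-F, 2 members were higher and 6 lower, and 6 and 2 with normexp, where the cause was not tested. Of 720 list counts against NT, 687 stayed within 1.5 times, 14 were lower and 19 higher. The filter on all 8 arrays removes genes dim in NT, Rgs13 among them.

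Over all genes, normexp called 3551, 3046 and 3145 against NT, where the fit reported called 6603, 5685 and 5999, and 17941, 16395 and 17389 passed with no fold threshold. Between OVA groups, limma called 1, 0 and 1 genes, and 140, 131 and 103 were called by the local-pooled-error test. A paired fit with the replicate block gave 7 members called against NT and 0 between OVA groups, with medians of 2.12, 2.31 and 2.01 against NT, and changed no call. The differences between mouse 1 and mouse 2 correlated between groups at r from -0.0084 to 0.1712 over 6 pairs of groups. The labels do not say whether mice of the same number are paired across groups, and these correlations cannot decide it. Signal over background limits the dim genes: in NT, Rgs13 and Il21 were well above background in neither mouse, and Il6, Mef2b and Fkbp11 in 1 of 2.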
